A study of Rattus norvegicus with 11 samples.

Results

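miR-375 is the best known microRNA (miRNA) of the pancreatic islet, and its hairpin precursor gives rise to 2 mature arms, miR-375-3p and miR-375-5p. Both arms were taken by name, as the features that begin with miR-375 and were counted on the sense strand. They are 2 of the 898 mature miRNA features in the data (950 rows before repeated names were merged), and both passed the abundance filter. The libraries came from isolated islets of Sprague-Dawley rats labelled as controls, from pups aged 10 days (P10, 5 libraries) and males aged 3 months (adult, 6 libraries). Libraries of an age are labelled as biological replicates, and whether 1 library pools several animals is not stated. They give the adults' sex, the pups' sex was not analysed here, and age and sex cannot be told apart. Total counts per library ran from 1599157 to 4483017 at P10 and from 1432929 to 2847837 in adults, and no sequencing batch is named.

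Islets are endocrine cell clusters in which insulin-secreting beta cells predominate. miR-375 is known to restrain insulin secretion, with the myotrophin and Pdk1 transcripts among its targets, and mice that lack it have fewer beta cells and more alpha cells. As for other miRNAs, the hairpin is cut by Drosha and Dicer to a short duplex, 1 arm is retained in an Argonaute protein as the guide, and the other is mostly degraded. In bulk islet RNA, a change in the share of endocrine cells and a change in miR-375 per cell cannot be told apart.

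The mature sequences are shown because the arms differ so widely in abundance, with the seed (bases 2 to 8, the main target-pairing stretch) in capitals, followed by the hairpin with both arms in capitals. They are RefSeq sequences (GRCr8), and both members were matched by name.
miR-375-5p: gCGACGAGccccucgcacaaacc
miR-375-3p: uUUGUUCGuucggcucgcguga
Mir375 hairpin: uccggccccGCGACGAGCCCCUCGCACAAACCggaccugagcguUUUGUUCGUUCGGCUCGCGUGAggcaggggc
The 5p arm occupies bases 10 to 32 and the 3p arm bases 45 to 66 of the 75-base hairpin, with 12 bases between them. In the minimum free energy fold (RNAfold, -34.3 kcal/mol) 16 bases of each arm were paired with the other arm. Neither seed occurs in any other of the 724 rat mature miRNA entries of that table, so miR-375 had no seed-sharing relative among them. The 3p arm holds 4 CG dinucleotides, as many or more as only 5 of the 692 distinct mature sequences (0.723%, the arm itself included). The 5p arm holds 3, reached by 20 of them (2.89%). G and C made up 54.5% of the 3p arm and 69.6% of the 5p arm, against a median of 47.8% over the distinct mature sequences.

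In the files' build (Rnor_5.0), miR-375-3p lies on chromosome 9 from 81930305 to 81930326 and miR-375-5p from 81930339 to 81930361, both on the minus strand. Each arm has a single locus, so no read had to be divided between copies, and the starts of the arms are 34 bases apart in the files as in GRCr8. In the RefSeq gene table Mir375 overlaps Cryba2, a lens crystallin gene, and LOC134480387. The next genes on either side are Fev, a transcription factor of serotonin neurons and islets, and Cfap65, a cilium and sperm flagellum gene. Antisense to miR-375-3p, 1 read was counted over all 11 libraries, below the 3 counts that a count of 0 allows.

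The 3p arm was the most abundant miRNA in 10 of the 11 libraries, and adults held more of it than pups on both scales examined. As a share of all counts in a library (1 entry per name), it took 17.3%, 10.6%, 15.4%, 19.4% and 17.3% at P10 (replicates 1, 3, 4, 5 and 6). In adults it took 26.8%, 24.2%, 23.8%, 28.5%, 27.8% and 27.7% (replicates 1 to 6). Each share carried a 95% Wilson interval of at most 0.0726 percentage points to either side, which covers counting error only. The lowest adult library lay above the highest P10 library, and P10 replicate 3 was the lowest of all. The mean share was 26.5% ± 1.99 (SD, n = 6) in adults and 15.97% ± 3.34 (SD, n = 5) at P10. This difference of 10.5 percentage points gave p = 0.00216 (two-sided exact permutation test over 462 splits, the smallest p they can give; adjusted p = 0.00433 over the 2 measures tested so).

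On the TMM scale, which divides counts by a library size adjusted for composition, the P10 libraries held 140691, 113156, 135276, 165984 and 160434 CPM (counts scaled to a common library total) of miR-375-3p. The adult libraries held 325026, 251238, 263272, 304846, 291654 and 290739 CPM. The ages again did not overlap, which held, with adults above, for 13.6% of the 457 tested features. The mean was 143108 ± 21141 CPM in pups (n = 5, SD) against 287796 ± 26975 CPM in adults (SD, n = 6). The 3p arm thus rose 2.01-fold (log2 fold change 1.01, SE 0.11, edgeR quasi-likelihood test with Benjamini-Hochberg adjusted p = 8.67e-06). Of the 457 tested features, 97 (21.2%) passed as higher in adults. In the age groups the coefficient of variation of the 3p arm between libraries was 14.8% at P10 and 9.37% in adults.

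**Figure D1:**
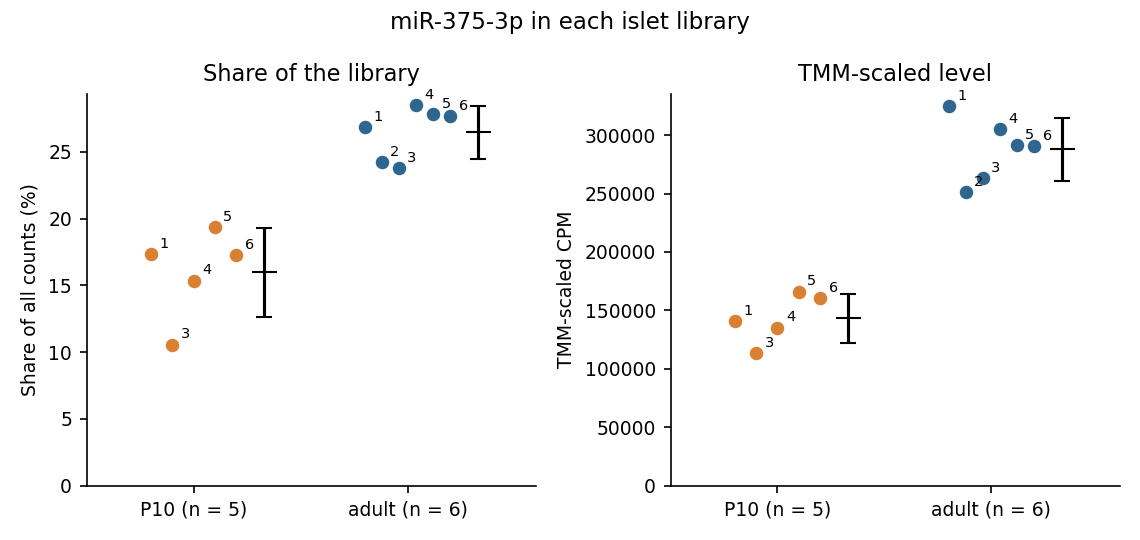
miR-375-3p in each islet library (points, numbered by replicate) as a share of all counts in percent (left) and as TMM-scaled CPM (right), with the mean and SD of each age beside the points. All 6 adult libraries, from 23.8% to 28.5%, lie above all 5 P10 libraries, from 10.6% to 19.4%.

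The other miRNAs shared what miR-375-3p left of each library. The counts outside miR-375-3p made up 84.0% ± 3.34 of a P10 library (SD, n = 5) and 73.5% ± 1.99 of an adult library (SD, n = 6), a log2 ratio of -0.19. With library totals alone as the scale, the log2 fold change of the 3p arm was 0.73 ± 0.13 (SE; edgeR adjusted p = 0.000305) and the median over all tested features moved by -0.26. With upper-quartile factors these values were 1.17 ± 0.13 (edgeR adjusted p = 3.77e-06) and 0.16. Relative to the median of all tested features, the 3p arm changed by 1.12 with TMM factors, 1.10 with library totals and 1.12 with upper-quartile factors. TMM factors calculated without miR-375-3p gave a log2 fold change of 1.01 ± 0.12 (SE).

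The rise of miR-375-3p was large among abundant miRNAs but not the largest in the data. Of the 457 tested features, 35 had a larger rise in log2 terms, and 92.1% had a lower log2 change, falls included. Among the 10 most abundant features, miR-22-3p (log2 fold change 1.39 ± 0.11, SE) and miR-27b-3p (1.16 ± 0.12, SE) had the larger rises. The falls of miR-10b-5p (-2.30) and miR-10a-5p (-1.38) were larger in size. In adults the levels of miR-22-3p and miR-27b-3p were lower than that of miR-375-3p. miR-27b-3p was at 144846 ± 11161 CPM (SD, n = 6) and miR-22-3p at 56070 ± 4239 CPM (SD, n = 6).

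**Figure D2:**
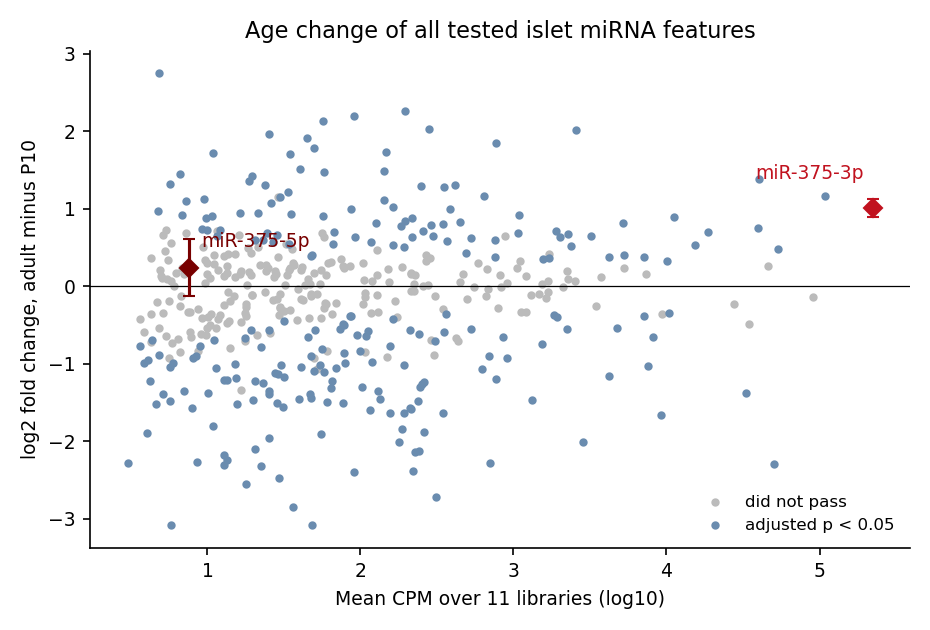
Log2 fold change (adult minus P10, edgeR) of the 457 tested miRNA features against the mean CPM over 11 libraries (log10 axis); blue features passed at an adjusted p under 0.05 and grey ones did not, and the bars on the miR-375 arms are SE. miR-375-3p is the feature farthest to the right, with a log2 change of 1.01, and miR-375-5p lies near the left edge at 0.24.

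In the order of levels, miR-375-3p stood clear of the next miRNA at both ages except in a single library. At P10 the next feature by mean level was miR-127-3p, encoded in the imprinted Dlk1-Dio3 domain, with 82922 to 107155 CPM, below the whole range of miR-375-3p. miR-10b-5p, encoded in a Hox cluster, ranged from 59103 to 165089 CPM at P10 and overlapped it. In P10 replicate 3 it exceeded miR-375-3p, which had 0.685 reads for each read of miR-10b-5p. In adults the next feature was miR-27b-3p in all 6 libraries, with 134522 to 166569 CPM, and miR-375-3p had 1.58 to 2.26 reads for each of its reads. Adapter ligation and PCR favour some sequences, so these comparisons between miRNAs describe reads and not molecules.

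Reads of miR-375-3p per read of each other abundant miRNA were compared between the ages within libraries, where no scaling factor enters. This comparison was added after the data were seen. Of the 9 ratios, 6 were higher in adults, 1 was lower and 2 did not pass (two-sided exact permutation tests, Benjamini-Hochberg over 9). For miR-127-3p, the geometric mean was 1.49 reads of miR-375-3p per read at P10 and 3.31 in adults (n = 5 and 6; exact permutation adjusted p = 0.00649). For miR-10b-5p it went from 1.72 to 17.9, and for miR-10a-5p, another Hox-cluster miRNA, from 2.97 to 16.0. The ratio to miR-143-3p, known from smooth muscle, went from 3.56 to 10.8. The other ratios that were higher in adults were those to ENSRNOT00000073699_-3p (3.25 to 4.66) and ENSRNOT00000072394_-5p (3.46 to 5.78), features without a miRNA name.

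The ratio to miR-22-3p went the other way, from 6.67 at P10 to 5.13 in adults (exact permutation adjusted p = 0.0223, n = 5 and 6). It was no longer past the threshold without adult replicate 2, 3, 5 or 6 (log2 difference from -0.37 to -0.34; adjusted p = 0.0510 in each). The ratio to miR-27b-3p was 2.22 at P10 and 1.98 in adults (exact permutation adjusted p = 0.377, n = 5 and 6). That to miR-141-3p, of the epithelial miR-200 family, was 5.00 and 5.91 (exact permutation adjusted p = 0.295). For both of these the ages overlapped. miR-375-3p therefore gained on most of the other abundant miRNAs between the ages, but not on miR-22-3p, and no difference from miR-27b-3p or miR-141-3p was shown with these libraries. All these ratios share the reads of miR-375-3p, so they are not separate evidence of its rise.

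The 5p arm was scarce. It gave 21, 4, 19, 28 and 50 reads in the P10 libraries (replicates 1, 3, 4, 5 and 6) and 13, 8, 12, 11, 18 and 27 in the adult libraries (replicates 1 to 6). Only 211 reads of the 5p arm stood against 5689115 of the 3p arm over all 11 libraries. Its level was 6.60 ± 2.92 CPM at P10 (SD, n = 5), with a range of 2.69 to 10.4 CPM. In adults it was 8.39 ± 3.69 CPM (SD, n = 6), with a range of 3.05 to 13.8 CPM, and the ages overlapped. A single count corresponded to 0.208 to 0.846 CPM. The log2 fold change was 0.24 ± 0.37 (SE), which did not pass (edgeR adjusted p = 0.597), where 50.8% of tested features passed in either direction. The standard error, which holds both counting error and spread between libraries, exceeded the change.

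Between the arms, miR-375 was the most one-sided of the 127 precursors with both arms tested. Precursors with an arm below the abundance filter were not ranked, so a more one-sided one among them is not excluded. Since the minor arm had to pass that filter, the ratio is limited by the level of the major arm. The first rank thus follows in large part from the abundance of miR-375-3p and is not a separate result. The mean level of its 3p arm was 28671-fold that of its 5p arm. The next was miR-10a, at 7811-fold in favour of the 5p arm, followed by the unnamed ENSRNOT00000072394 at 6248-fold and miR-22 at 5476-fold. The median over precursors was 7.54-fold. These ratios carry the ligation bias of each arm and rest, for miR-375, on few reads of the minor arm.

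The 5p arm made up a smaller part of miR-375 reads in adults, but the difference did not pass the test. Per 100000 miR-375 reads, the P10 libraries held 4.93, 2.38, 3.70, 4.81 and 6.48 reads of the 5p arm (replicates 1, 3, 4, 5 and 6). The adult libraries held 3.39, 1.22, 3.13, 2.49, 2.28 and 4.74 (replicates 1 to 6). P10 replicate 3 lay among the adult libraries and adult replicate 6 among the P10 libraries. The means were 4.46 ± 1.53 (SD, n = 5) and 2.87 ± 1.19 (SD, n = 6), with p = 0.0714 (two-sided exact permutation test; adjusted p = 0.0714 over the 2 measures tested so). Pooled over libraries, the part was 4.96 per 100000 (95% Wilson interval 4.15 to 5.92) at P10 and 2.76 (2.24 to 3.39) in adults, intervals that leave out the spread between libraries.

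In the test across precursors, the log2 ratio of 5p to 3p differed by -0.69 ± 0.28 (SE) between adults and P10 (limma, Benjamini-Hochberg adjusted p = 0.0776). In the same test 22.8% of the 127 precursors passed. The difference passed without P10 replicate 3 (-0.85, limma adjusted p = 0.0484) and without adult replicate 6 (-0.84, adjusted p = 0.0377). It did not pass when any other single library was left out, and the call thus turned on those 2 libraries.

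**Figure D3:**
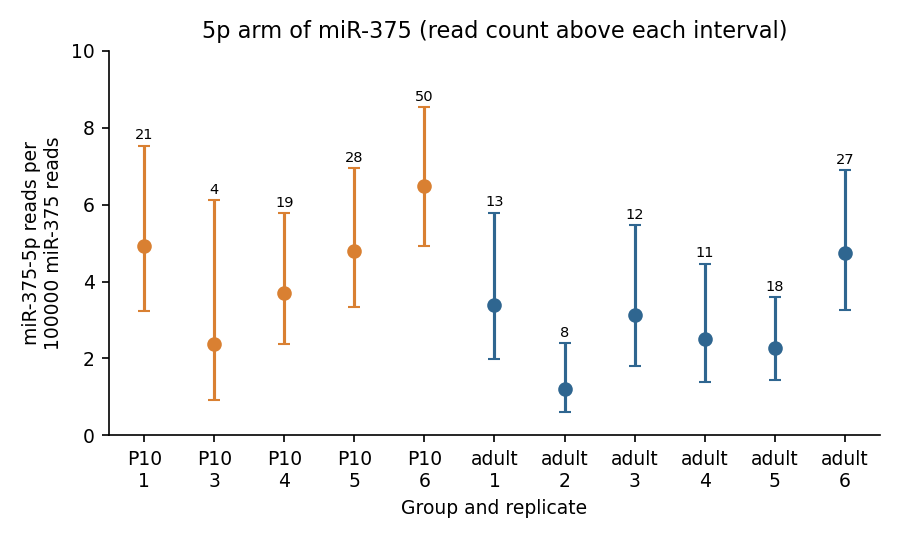
Reads of miR-375-5p per 100000 miR-375 reads in each library, by group and replicate, with 95% Wilson intervals (counting error only) and the number of 5p reads above each. The P10 libraries lie between 2.38 and 6.48 and the adult libraries between 1.22 and 4.74, so the ages overlap.

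Within each age, the libraries richest in miR-375-3p on the TMM scale were P10 replicate 5 and adult replicate 1. The poorest on that scale were P10 replicate 3 and adult replicate 2. By share of counts the P10 libraries were the same, but the adult ones were replicate 4 (28.5%, richest) and replicate 3 (23.8%, poorest). The deviations of each library from its age mean (log2 CPM) were compared between miRNAs over the 11 libraries, as a description with no test, since all points share the TMM scale of their library. The deviations of the 5p arm had a Pearson r of 0.80 with those of the 3p arm (Spearman rho 0.68), and 0.74 without P10 replicates 3 and 5, which lay farthest out. Among 199 other features of at least 50 CPM, the median r was -0.02 and the values ran from -0.73 to 0.72, with 18 above 0.5. The most similar were miR-128-3p, a brain-enriched miRNA (r = 0.72, rho = 0.75), and miR-323-3p, of the Dlk1-Dio3 domain (r = 0.70, rho = 0.65). They were followed by miR-423-3p (r = 0.68, rho = 0.83), miR-340-3p (r = 0.67, rho = 0.64) and miR-3099-3p (r = 0.66, rho = 0.60). Without P10 replicates 3 and 5 the r of miR-340-3p was 0.33 and that of miR-3099-3p 0.46, so these likenesses rested largely on those libraries.

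The 5 most similar miRNAs did not share an age change. miR-323-3p fell 1.76-fold in adults (edgeR adjusted p = 0.000762), where 29.5% of tested features passed as lower, while miR-423-3p and miR-340-3p rose 1.49-fold and 1.56-fold. miR-128-3p (log2 change 0.30, edgeR adjusted p = 0.135) and miR-3099-3p (0.26, adjusted p = 0.132) did not pass. miR-128-3p passed with upper-quartile factors (0.47, adjusted p = 0.0305), with DESeq2 (0.0370) and without adult replicate 2 (0.0350). miR-3099-3p passed with DESeq2's size factors (adjusted p = 0.0478), upper-quartile factors (0.42, 0.0260) and DESeq2 (0.0232). The rises of miR-423-3p and miR-340-3p did not pass with library totals alone (edgeR adjusted p = 0.143 and 0.135). The tested features of at least 50 CPM with the log2 change nearest to that of miR-375-3p were miR-425-5p (1.00), miR-3068-3p (1.02), miR-7a-2-3p (1.11), miR-129-2-5p (0.90) and miR-141-5p (0.87). Of these, miR-7a-2-3p and miR-129-2-5p belong to islet and neuroendocrine miRNAs, and miR-141-5p is an arm of an epithelial precursor. Their within-age r with miR-375-3p was 0.48 for miR-425-5p, 0.40 for miR-3068-3p, 0.63 for miR-7a-2-3p, -0.44 for miR-129-2-5p and 0.33 for miR-141-5p. Without P10 replicates 3 and 5 these values were, in the same order, 0.31, -0.07, 0.17, -0.39 and 0.31.

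On chromosome 9 within 2000 kb of miR-375, the files hold both arms of miR-26b and an unnamed feature with 1 read in all. miR-26b lies 490.5 kb away on the plus strand, and in mammals its gene sits in an intron of Ctdsp1, a phosphatase gene. miR-26b-5p averaged 1718 ± 441 CPM in pups (n = 5, SD) against 2733 ± 522 CPM in adults (SD, n = 6). This 1.59-fold rise passed (edgeR adjusted p = 0.00601), but not with library totals alone (log2 change 0.42, edgeR adjusted p = 0.0715). Its ages overlapped, unlike those of miR-375-3p. miR-26b-3p averaged 32.8 ± 5.14 CPM in pups against 27.2 ± 5.90 CPM in adults (SD, n = 5 and 6), which did not pass (edgeR adjusted p = 0.229). With library totals alone it was lower (-0.53, edgeR adjusted p = 0.0177). The within-age r with miR-375-3p was 0.07 for miR-26b-5p and -0.41 for miR-26b-3p.

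Other miRNAs known from islets and neuroendocrine cells lay far below miR-375-3p in level, and some of them were also higher in adults. Of 16 tested arms of miR-7, miR-184, miR-204, miR-129, miR-153, miR-183 and miR-96, 8 rose, 2 fell and 6 did not pass. Over all 457 tested features 97 (21.2%) rose and 135 (29.5%) fell. The median log2 fold change was 0.58 in the list and -0.11 over all tested features. With library totals alone 4 of the 16 rose and 2 fell, and with upper-quartile factors 10 rose and 1 fell. miR-211 and miR-124 arms lay below the filter, and miR-9 and miR-182 were not analysed here. Some names are the same mature arm at different loci (miR-7a-1-5p and miR-7a-2-5p, and the 5p arms of miR-129), so they are not separate evidence.

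The miR-7 family, abundant in endocrine cells and known to restrain insulin secretion, rose in 4 of its 5 tested arms. Of all tested features 21.2% rose, and miR-7a-1-5p and miR-7a-2-5p are the same mature arm at different loci. miR-7a-1-5p averaged 228.9 ± 75.1 CPM in pups (n = 5, SD) against 565.2 ± 176 CPM in adults (SD, n = 6), with no overlap (log2 fold change 1.30, SE 0.25, edgeR adjusted p = 0.000762). Such a lack of overlap, with adults above, held for 13.6% of tested features. The arms miR-7a-2-5p and miR-7a-2-3p were 2.45-fold and 2.16-fold higher in adults. miR-7b-5p rose 1.71-fold (edgeR adjusted p = 0.0297), a call lost with library totals alone (0.162) and without P10 replicate 1, 3 or 5 or adult replicate 2, 5 or 6 (adjusted p from 0.0538 to 0.0687). miR-7a-1-3p, at 14.5 ± 2.14 CPM in adults (SD, n = 6), had a log2 change of 0.38 (edgeR adjusted p = 0.172), which passed without P10 replicate 1 (0.61, adjusted p = 0.0160). Summed over the whole list, the levels were 10892 to 15122 CPM at P10 and 11880 to 13539 CPM in adults, and the ages overlapped. Most of that sum was miR-183-5p, which averaged 8217 CPM in pups and 6309 CPM in adults, so it does not describe the other members.

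miR-129-1-3p had the largest rise of the list, 3.31-fold, and miR-129-2-5p rose 1.87-fold. miR-129-1-5p (log2 change 0.41, edgeR adjusted p = 0.0625) and miR-129-2-3p (-0.11, adjusted p = 0.757) did not pass. miR-129-1-5p did pass with DESeq2's size factors (adjusted p = 0.0241), upper-quartile factors (0.0133), limma-voom (0.0301) and DESeq2 (0.00904), and without P10 replicate 1 (log2 change 0.62, edgeR adjusted p = 0.000689). miR-153, a neuronal and islet miRNA, rose 1.87-fold in its 5p arm. Its 3p arm averaged 665.8 ± 306 CPM in pups (n = 5, SD) against 1048 ± 148 CPM in adults (SD, n = 6), a log2 change of 0.65 that did not pass (edgeR adjusted p = 0.0524). It passed in 7 of 12 other settings (adjusted p from 0.0157 to 0.0455), DESeq2, limma-voom and upper-quartile factors among them, and without P10 replicate 4 (0.0255) or 6 (0.0128). miR-204-5p, of the beta cell miR-204 and miR-211 family, rose 1.43-fold (edgeR adjusted p = 0.0245). Its call was lost with library totals alone (0.274), without P10 replicate 4 (0.0565) and without Ensembl-only features (0.0513). The calls of miR-129-2-5p and miR-153-5p were lost with library totals alone (edgeR adjusted p = 0.0558 and 0.0566).

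The exceptions fell while miR-375-3p rose. miR-184-3p, known as an islet regulator of Argonaute 2, averaged 371.1 ± 64.1 CPM in pups (n = 5, SD) against 155.2 ± 44.6 CPM in adults (SD, n = 6), with no overlap (log2 fold change -1.26, SE 0.20, edgeR adjusted p = 0.000160). The share of all tested features without overlap and with pups above was not counted. miR-183-5p, the most abundant member with 8217 ± 1643 CPM in pups (SD, n = 5), fell 1.30-fold (edgeR adjusted p = 0.0191). It did not pass with upper-quartile factors (adjusted p = 0.199), DESeq2's size factors (0.0652) or DESeq2 (0.0590). miR-183-3p and miR-96-5p, from the same cluster, had log2 changes of 0.20 and 0.15 (edgeR adjusted p = 0.342 and 0.387).

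**Figure D4:**
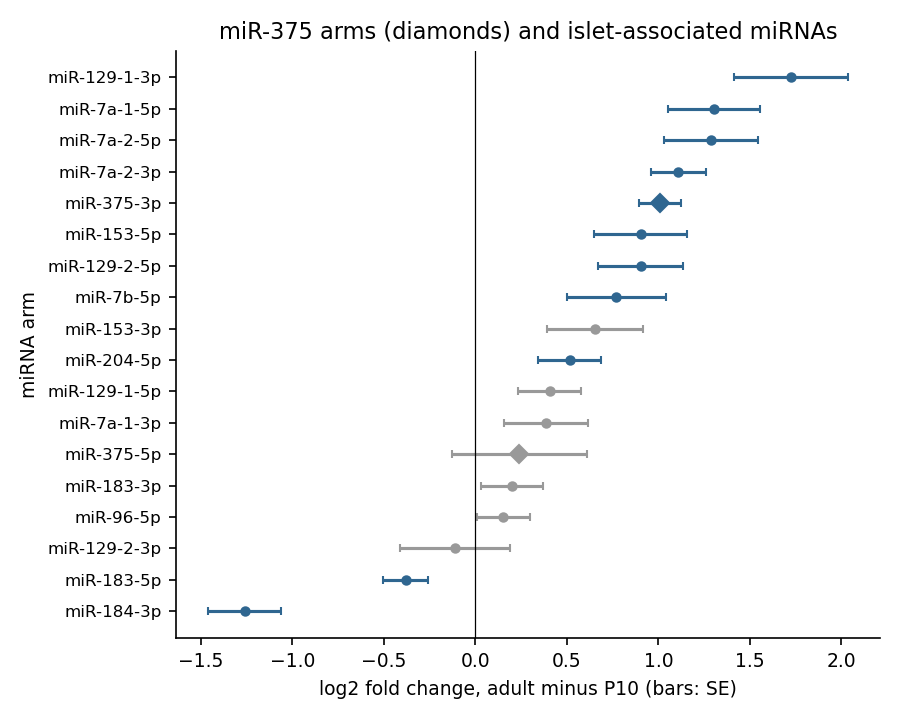
Log2 fold change (adult minus P10, edgeR; bars are SE) of the 2 miR-375 arms (diamonds) and the 16 tested arms of islet-associated miRNAs (circles), in order of size; blue passed at an adjusted p under 0.05 and grey did not. miR-375-3p, at 1.01, ranks below miR-129-1-3p and 3 miR-7a arms, and miR-184-3p, at -1.26, is the lowest.

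Some markers of other cell types also differed between the ages. For the mesenchymal miRNAs miR-143, miR-145 and miR-199a, 4 of 6 tested arms fell in adults and none rose (median log2 fold change -1.11), where 29.5% of all tested features fell, and none of the 6 was at 0. Their summed level was 33246 to 61126 CPM at P10 and 17172 to 58287 CPM in adults, almost all of it miR-143-3p (-0.49, edgeR adjusted p = 0.174). miR-143-3p passed as lower with library totals alone (-0.76, edgeR adjusted p = 0.0188) and without adult replicate 1 (-0.79, 0.00957). miR-199a-3p fell 4.86-fold. The sum was highest at P10 in replicate 3, the library with the least miR-375-3p. Among adults it was highest in replicate 1, the library with the most miR-375-3p on the TMM scale (325026 CPM). As a share of counts, adult replicate 1 held 26.8% miR-375-3p, below the 28.5% of adult replicate 4. The miRNAs miR-199b and miR-214 of this list were not analysed here.

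The acinar miR-216 and miR-217 summed to 22.2 to 37.7 CPM at P10 and 28.6 to 127.1 CPM in adults, and 2 of 3 tested arms rose (median log2 fold change 1.36), where 21.2% of all tested features rose. These were miR-217-5p (3.90-fold) and miR-216a-5p (2.56-fold, a call lost with library totals alone, adjusted p = 0.0542, with limma-voom, 0.101, and without P10 replicate 1 or adult replicate 3 or 6, from 0.0541 to 0.0640). Of 4 tested leukocyte arms 1 fell, miR-150-5p (2.79-fold), a share near the 29.5% of all tested features, and miR-142-5p did not pass (-0.71, edgeR adjusted p = 0.162; with library totals alone 0.0488). Their sum ran from 681.0 to 1427 CPM at P10 and from 248.9 to 832.3 CPM in adults. Neither of the erythroid arms tested passed, miR-451-5p (-0.32, edgeR adjusted p = 0.505) and miR-144-5p (0.10, adjusted p = 0.856), with sums of 24.2 to 72.3 and 14.5 to 63.7 CPM. The muscle miR-133b-3p was at 0 to 1.53 CPM in every library, and the endothelial miR-126 and hepatocyte miR-122 were not analysed here, nor were miR-1, miR-133a, miR-206 and miR-486. The part of these other cells in the rise of miR-375-3p was not tested.

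**Figure D5:**
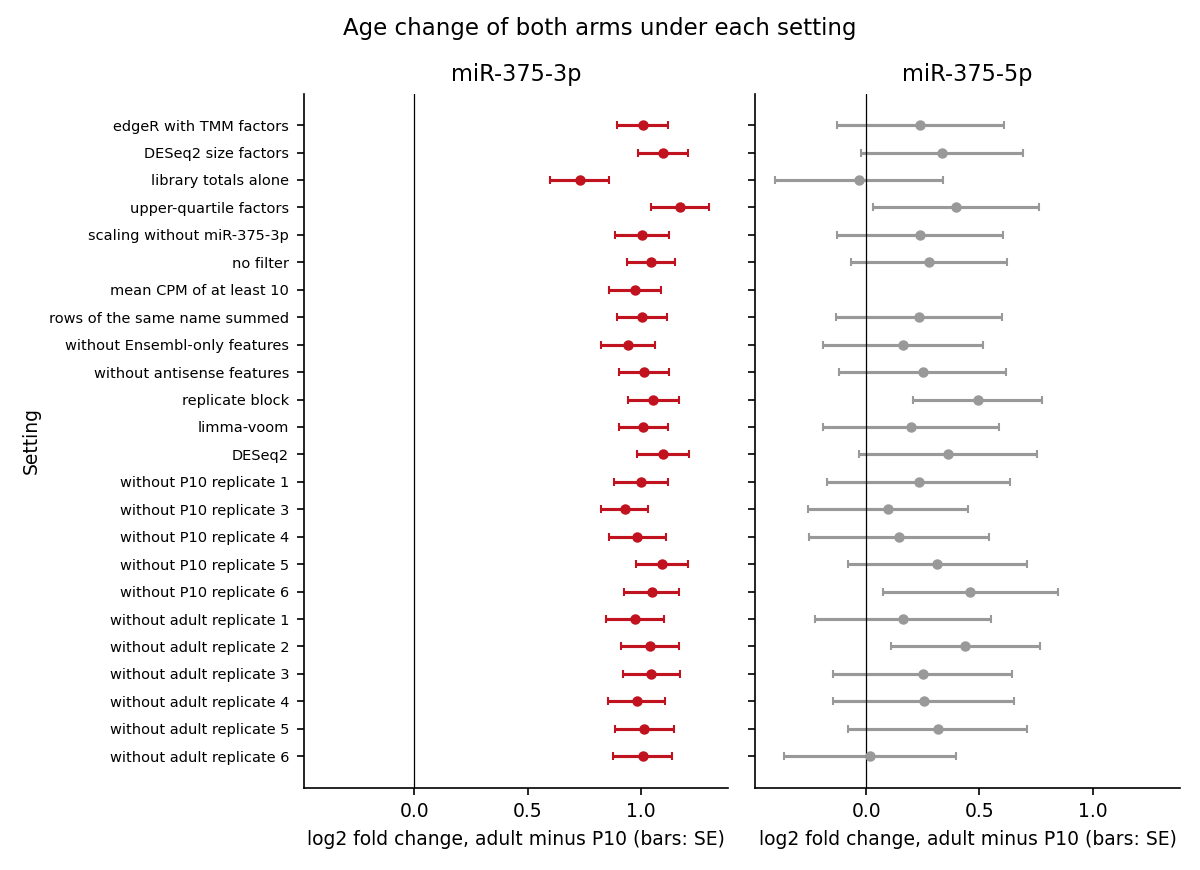
Log2 fold change (adult minus P10; bars are SE) of miR-375-3p (left) and miR-375-5p (right) under each scaling, filter, test and left-out library, on the same axis; red passed at an adjusted p under 0.05 and grey did not. miR-375-3p stays between 0.73 and 1.17 and passes in each setting shown, while miR-375-5p lies between -0.03 and 0.49 and passes in none.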

How the data were processed

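Small RNA libraries (Illumina TruSeq kit) were built from Trizol-extracted islet RNA, per the labels' protocols. The deposited values are unnormalized read counts for each arm at each Rnor_5.0 position, per the file headers. The submitters' processing notes list rn5, edgeR and DESeq. Aligner, counting rules and annotation: not given in the sources used here. No molecular identifiers are stated. The 11 per-library tables held the same counts as the series table.

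Each name entered once, with its highest count over rows in each library. In R 4.3.3, edgeR 4.0.16 (filterByExpr, TMM factors, robust quasi-likelihood) tested 457 features over all 11 libraries, with Benjamini-Hochberg adjustment at 0.05. Arm ratios used limma 3.58.1 (prior count 2), exact permutations SciPy 1.17.1, and the fold ViennaRNA 2.7.2. P-values measure the spread between these libraries only. Fits were also run on simulated data with the same spread for every feature, and no result here rests on that run. No libraries of an age agreed within sampling noise (chi-square per degree of freedom at least 12.9).

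Members, lists and tests were chosen with earlier results of these data known. Named by rule were both arms, the 10 most abundant features, those within 2000 kb, those sharing a seed, the 5 closest in within-age deviations and the 5 closest in log2 change (mean CPM of at least 50). The rule also took tested islet list members of at least 10 mean CPM and the 2 highest members of each marker list, and left out antisense features. The other list members named were chosen after their values were seen. Alternatives covered scaling (DESeq2 1.42.0 size factors among them), filters, tests, repeated rows, feature classes, replicate block and left-out libraries.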

Additional observations from a re-analysis of the deposited data

How the results depend on the processing

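The log2 fold change of miR-375-3p passed the test in all 12 other settings (0.73 to 1.17) and without each of the 11 libraries (0.93 to 1.09). Its share difference stayed between 9.15 and 11.9 percentage points, with exact permutation p of at most 0.00794. For miR-375-5p no setting run passed (without 1 library, 0.02 to 0.46), and with library totals alone its log2 change reversed to -0.034. A mean CPM of at least 10 could not be applied to the 5p arm or the arm ratio, since the 5p arm lies below it. The arm ratio ranged from -0.85 to -0.50 without 1 library, and the exact permutation test of that ratio gave p = 0.0519. Calls over all features numbered 191 to 248, with 54 higher and 187 lower with library totals alone (22.4% higher, against 41.8%), 127 and 103 with upper-quartile factors (55.2%). Without a filter, 129 of 898 features exceeded the log2 change of miR-375-3p, as more low features entered. The islet list had 4 rises with library totals alone, where the median over all features moved by -0.26.

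Same-numbered libraries did not deviate together (r from -0.21 to 0.20, no library closest to its own number). These values gave no sign of a pairing by number, but such correlations cannot exclude one. With the replicate block the log2 changes were 1.05 (3p) and 0.49 (5p), the arm ratio -0.50, and 205 features passed.

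Among named features that did not pass, these changed sign. With library totals alone the log2 changes were -0.00316 (ENSRNOT00000072394_-5p), -0.15 (miR-144-5p), -0.066 (miR-183-3p), -0.013 (miR-3099-3p) and -0.10 (miR-96-5p). With upper-quartile factors they were 0.023 (miR-127-3p) and 0.062 (miR-129-2-3p), and with the replicate block -0.21 (miR-144-5p). Without 1 library, miR-129-2-3p ranged from -0.26 to 0.086, miR-451-5p from -0.60 to 0.073 and miR-144-5p from -0.28 to 0.30. miR-127-3p passed as lower with library totals alone (-0.40, edgeR adjusted p = 0.0013). ENSRNOT00000072394_-5p passed as higher with DESeq2's size factors (edgeR adjusted p = 0.0295), upper-quartile factors (0.0224), DESeq2 (0.0195) and without P10 replicate 6 (0.0491). The 5p arm rests on 4 to 50 reads a library, which limits every statement on it.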
